A study of Mus musculus with 10 samples.

Results

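Endothelial cells stand between the lipoproteins of blood or lymph and the tissue, and 9 genes of that work are described here. GPIHBP1 anchors lipoprotein lipase, the enzyme that splits triglycerides of circulating particles (Lpl), on the luminal face of capillaries, and endothelial lipase (Lipg) cuts mainly phospholipids of high-density lipoprotein. VLDLR binds triglyceride-rich particles, CD36 is a scavenger receptor that helps long-chain fatty acids into the cell, FABP4 and FABP5 carry fatty acids in the cytosol, CPT1A is the gate to mitochondrial oxidation, and PPARγ (Pparg) is the nuclear receptor for fatty acids that is best known in adipocytes. Blood capillaries are the classic site of this handling of lipids, whereas lymphatic vessels collect chylomicrons and tissue lipid for return to the blood.

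The members were chosen by name as genes of this work, with earlier results of these data known: Gpihbp1, Lpl, Lipg, Vldlr, Cd36, Fabp4, Fabp5, Cpt1a and Pparg, 9 of the 23284 genes of the count table. They were measured by RNA-Seq in 10 libraries of endothelial cells sorted fresh from wild-type C57BL/6 (B6) mice aged 6 to 8 weeks. Lymph node lymphatic endothelial cells (LN-LEC, 4 libraries) and lymph node blood endothelial cells (LN-BEC, 3 libraries) came from inguinal, axillary, brachial, cervical and mesenteric nodes put together. The third population was diaphragm LEC (D-LEC, 3 libraries), which stand for the lymphatics of a peripheral tissue. Each library came from many pooled mice, the cells were CD45-negative and CD31-positive, and podoplanin parted LEC from BEC. The gate let LN-BEC hold the endothelium of every blood vessel type of a node, from capillaries to high endothelial venules, and blood endothelium of the diaphragm was not analysed here.

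Levels are given as normalized counts, the fragment counts divided by DESeq2 size factors, with the SD over libraries. Differences are log2 fold changes with their SE from edgeR's quasi-likelihood test over 15320 genes, called at a Benjamini-Hochberg adjusted p under 0.05. Libraries held 22429940 to 48906070 fragments, so 3 counts amount to a CPM (counts scaled to the library total) of 0.0613 to 0.134. The summed level of the 4 LEC markers Lyve1, Pdpn, Prox1 and Reln was 79208 to 102089 in LN-LEC, 313593 to 337356 in D-LEC and 965 to 5262 in LN-BEC. The summed level of the BEC markers Nrp1, Flt1, Vwf and Notch4 was 69497 to 72713 in LN-BEC, 818 to 1374 in LN-LEC and 450 to 633 in D-LEC. Both lists fitted the labels. LN-BEC replicate 3 stood apart: its LEC marker sum was the 5262, against 1647 and 965 in the other LN-BEC libraries, and results that rest on it are given with and without it. Its chi-square per gene to the other LN-BEC libraries was 296 and 370, against 25.3 between those libraries. LN-LEC replicate 4 was the deepest library and also lay away from the other LN-LEC libraries (chi-square per gene 113 to 147, against 10.02 to 18.1 among the other LN-LEC libraries).

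The reference table of promoters (RefSeq, build GRCm38.p6) matched 4 of the 9 members, Vldlr, Cd36, Cpt1a and Pparg, with 7 starts. The 250 bases before the start are shown for Cd36 and Vldlr, because these receptors moved in opposite directions between lymph node and diaphragm. Capitals mark the motif letters found on either strand, AGGTCA (the hexamer that nuclear receptors such as PPARγ bind, read here as TGACCT) and CCAAT (read as ATTGG on the reverse strand). The Cd36 stretch is chr5:17835897-17836146 on the minus strand, and the Vldlr stretches are chr19:27216234-27216483 and chr19:27216770-27217019 on the plus strand.
Cd36 promoter: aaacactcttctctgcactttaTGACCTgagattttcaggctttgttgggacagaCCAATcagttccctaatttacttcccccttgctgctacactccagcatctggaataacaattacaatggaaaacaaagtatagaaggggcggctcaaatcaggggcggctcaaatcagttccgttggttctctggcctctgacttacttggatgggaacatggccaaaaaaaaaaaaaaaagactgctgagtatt
Vldlr promoter, first start: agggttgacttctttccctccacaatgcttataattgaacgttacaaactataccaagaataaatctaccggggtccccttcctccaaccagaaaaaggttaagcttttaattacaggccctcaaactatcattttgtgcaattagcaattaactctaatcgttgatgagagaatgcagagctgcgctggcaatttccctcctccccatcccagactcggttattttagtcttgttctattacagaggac
Vldlr promoter, second start: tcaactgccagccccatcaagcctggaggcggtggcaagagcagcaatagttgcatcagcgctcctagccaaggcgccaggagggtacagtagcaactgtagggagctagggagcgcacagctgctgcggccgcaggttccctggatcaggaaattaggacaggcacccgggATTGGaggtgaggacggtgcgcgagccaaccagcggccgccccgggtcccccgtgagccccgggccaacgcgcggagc
In Cd36 the AGGTCA letters lie 228 to 223 bases before the start and CCAAT 195 to 191 bases before it. AGGTCA is not particular to Cd36 among the matched members. It also lies 94 to 89 bases before the Cpt1a start, 28 to 23 before Pparg start 1 and 9 to 4 before Pparg start 2. CCAAT also lies before the Cpt1a start (19 to 15 bases), Pparg start 2 (83 to 79) and Pparg start 3 (144 to 140 and 22 to 18). The second Vldlr start has CCAAT 78 to 74 bases before it, and the first has none of the 5 motifs searched. AGGTCA occurs in 14% and CCAAT in 33.8% of the 32851 promoters of that length. The full direct repeat for PPARγ and its partner RXR, AGGTCANAGGTCA, was in 0.0335% of promoters, and the forkhead letters GTAAACA were in 3.17%. Neither was in any of the 7 member starts. TATAAA, in 12.4% of promoters, was before 1 Pparg start. These matches are letters in a window and not binding sites.

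In lymph node LEC, the lipase anchor Gpihbp1, the endothelial lipase Lipg and the fatty acid carriers Fabp4 and Fabp5 were lower than in lymph node BEC, and the lipoprotein receptor Vldlr was higher. Gpihbp1 was 18.3-fold, Lipg 27.6-fold and Fabp4 6.38-fold lower, and Fabp5 was 3.34-fold lower, while Vldlr was 1.37-fold above LN-BEC. Of the 9 members, 5 passed the test in this comparison, where 38.2% of all 15320 genes passed. LN-LEC had more of 1 of them (19.8% of genes) and LN-BEC more of 4 (18.4% of genes). The median log2 fold change of the members was -0.81, beside -0.01 over all genes tested. With DESeq2 in place of edgeR, 8 members passed beside 40% of genes, and the added ones were Lpl, Cd36 and Cpt1a, each higher in LN-BEC. LN-LEC differed from D-LEC in 6 members, where 45.8% of genes passed. LN-LEC had more of 4 (Lipg, Cd36, Fabp4, Fabp5; 24.1% of genes) and D-LEC more of 2 (Gpihbp1, Vldlr; 21.7% of genes). D-LEC differed from LN-BEC in 7 members, where 48.1% of genes passed. D-LEC had more of 1, Vldlr (22.5% of genes), and LN-BEC more of 6 (25.6% of genes). The members' medians were 0.31 for LN-LEC against D-LEC and -1.11 for D-LEC against LN-BEC, beside 0.03 and -0.05 over all genes. Any 2 of the 3 comparisons share the libraries of a population. In sorted bulk samples, fewer cells that carry a transcript and less of it per cell cannot be told apart.

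**Figure D1:**
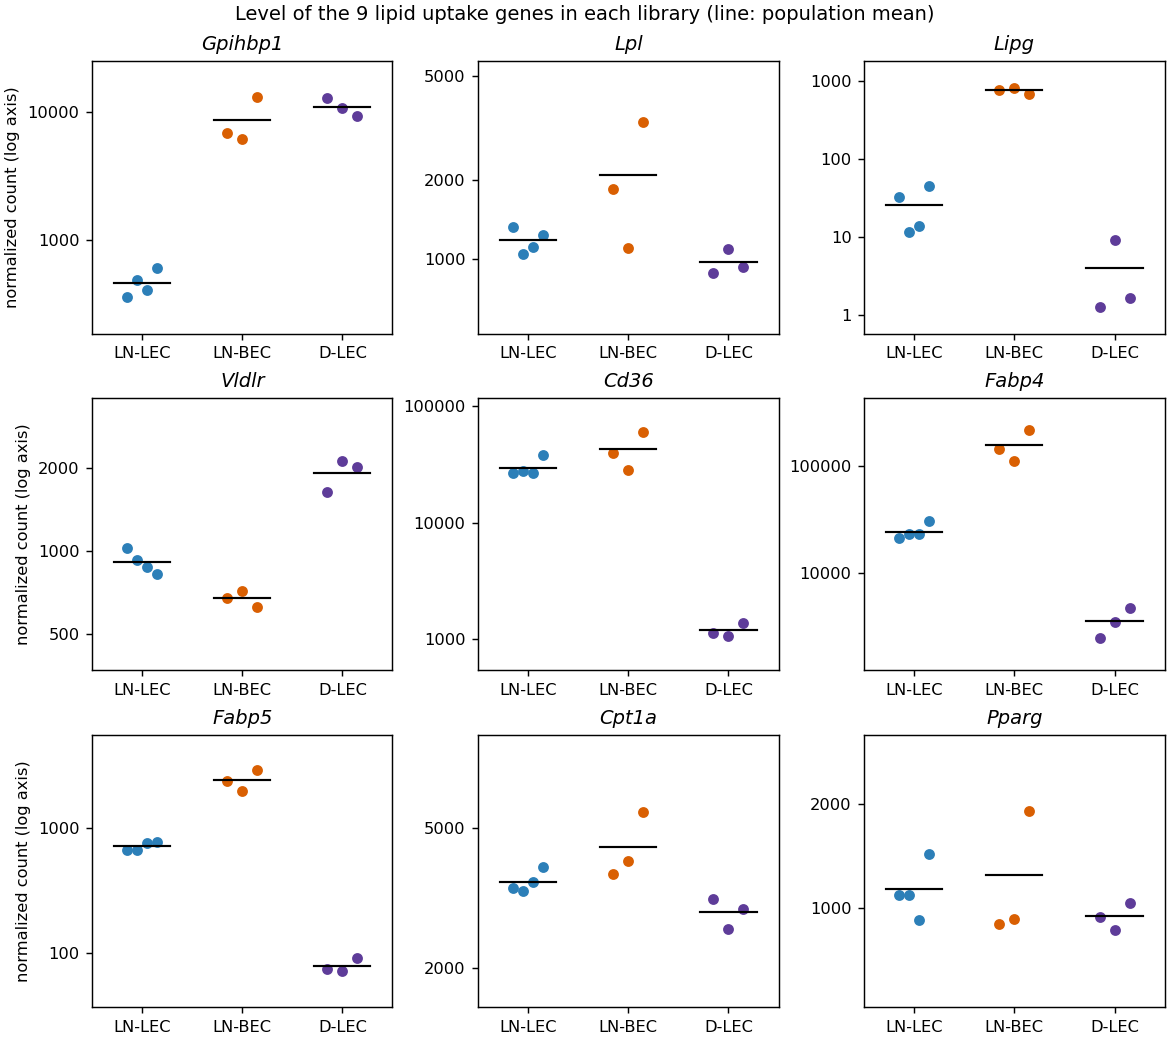
Normalized count (log axis) of each of the 9 genes in each library of the 3 populations, with points for the 10 libraries and a line for the population mean. Gpihbp1 was low in LN-LEC alone of the 3 populations (360 to 607), Lipg was high in LN-BEC alone (681 to 815), and Cd36, Fabp4 and Fabp5 were lowest in D-LEC.

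Gpihbp1, the anchor of lipoprotein lipase (chromosome 15, 75427088 to 75428643 of build mm9, plus strand), separated the 2 lymphatic populations. Its normalized counts were 360, 491, 409 and 607 in LN-LEC. They were 6899, 6113 and 12983 in LN-BEC. They were 12818, 10725 and 9366 in D-LEC. The LN-LEC libraries lay below every other library, while the D-LEC and LN-BEC libraries overlapped. The log2 fold change was -4.19 (SE 0.30, adjusted p = 3.8e-06) for LN-LEC against LN-BEC. It was -4.52 (SE 0.31, adjusted p = 2.2e-06) for LN-LEC against D-LEC, which is 23.0-fold (95% interval 14.2 to 37.2). D-LEC and the blood endothelium of the node differed by 0.33 (95% interval -0.34 to 1.0, adjusted p = 0.38). Without LN-BEC replicate 3 this difference rose to 0.74 and passed the test (adjusted p = 0.0086), with D-LEC the higher. Per kilobase of exon, Gpihbp1 was the highest of the 9 members in D-LEC, at 13763 ± 2182 (SD, n = 3), rank 102 of all genes tested.

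Gpihbp1 in D-LEC stood at 127% ± 20.1 (SD, n = 3) of the LN-BEC mean. The BEC markers in the same D-LEC libraries stood at 0.233% (Nrp1), 0.416% (Flt1), 2.59% (Vwf) and 4.82% (Notch4) of it. Of the capillary markers, Car4, a capillary carbonic anhydrase, was at 0.116% and Rgcc at 0.378% of the LN-BEC mean in D-LEC. The remaining capillary markers were higher there, Plvap at 9.96%, Cd300lg at 17.1% and Kdr, which LEC also express, at 70.0%. In LN-LEC, Gpihbp1 stood at 5.39% ± 1.25 (SD, n = 4) of the LN-BEC mean, where Nrp1 was at 1.48%, Flt1 at 1.35%, Vwf at 2.0% and Notch4 at 2.27%. Its level was highest in LN-LEC replicate 4 (607), which also had the highest BEC marker sum of the LN-LEC libraries (1374, against 818 to 1305). LN-LEC replicate 1 had the next highest sum (1305) and the lowest Gpihbp1 level (360). LN-LEC replicate 2 had the lowest sum (818) and the next highest level (491). The part of carried-over BEC RNA in the LN-LEC level was not tested.

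**Figure D2:**
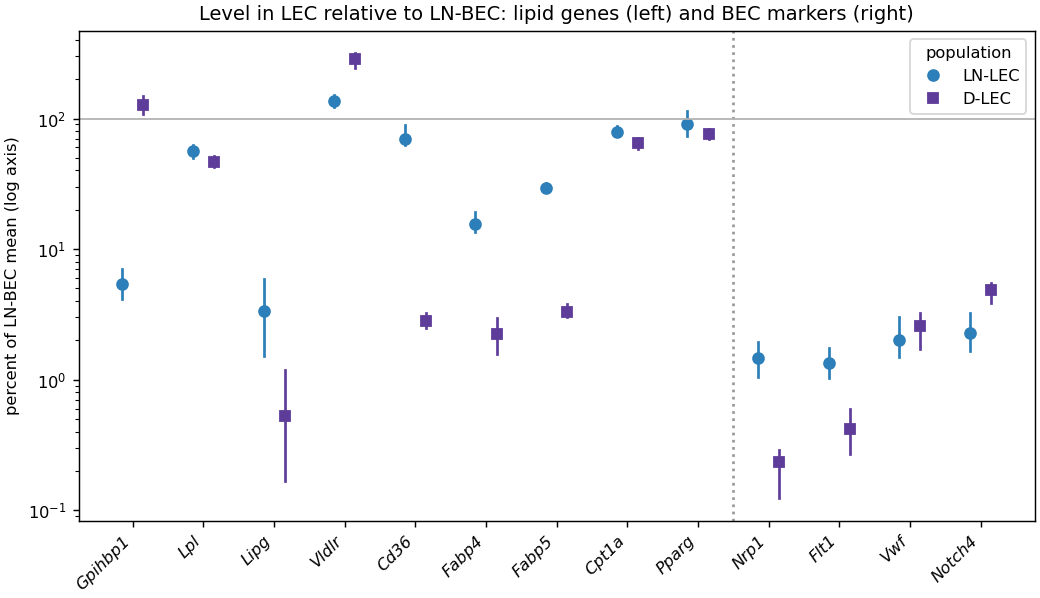
Mean level in LN-LEC (circles) and D-LEC (squares) as a percent of the LN-BEC mean (log axis), with lines from the lowest to the highest library. The 9 lipid genes stand left of the dotted line and the 4 BEC markers Nrp1, Flt1, Vwf and Notch4 right of it. Gpihbp1 was at 127% in D-LEC, where the 4 markers were at 0.233% to 4.82%, and Lipg was at 3.38% in LN-LEC, where the markers were at 1.35% to 2.27%.

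Lpl, the lipase that GPIHBP1 anchors and that parenchymal cells such as adipocytes and muscle fibres mostly make (chromosome 8, 71404454 to 71430831), was detected in every library. By library it was at 1327, 1042, 1109 and 1238 in LN-LEC. They were 1858, 1103 and 3340 in LN-BEC. They were 885, 1093 and 935 in D-LEC. LN-BEC replicate 3 was the highest library and LN-BEC replicate 2 lay among the LEC libraries, so LN-LEC and LN-BEC overlapped. The log2 fold change for LN-LEC against LN-BEC was -0.81 (SE 0.31, 95% interval -1.52 to -0.11), with an adjusted p of 0.070, and without LN-BEC replicate 3 it was -0.32 (adjusted p = 0.19). Over the 11 edgeR fits that left out libraries this change ranged from -1.11 to -0.32, and 1 passed (adjusted p = 0.00061). D-LEC was 2.17-fold lower than LN-BEC (log2 fold change -1.11, SE 0.34, adjusted p = 0.024), a call that was lost without D-LEC replicate 1 (adjusted p = 0.087) or D-LEC replicate 3 (adjusted p = 0.074), and without LN-BEC replicate 3 the change was -0.62 (adjusted p = 0.017). LN-LEC and D-LEC differed by 0.30 (95% interval -0.42 to 1.02, adjusted p = 0.48). In that comparison Gpihbp1, which holds the enzyme at the vessel wall, was 23.0-fold lower in LN-LEC.

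Adipocytes make much Lpl, Pparg, Cd36 and Fabp4, so the level of 6 adipocyte markers (Adipoq, Plin1, Cidec, Retn, Cfd, Lep) was set beside them. Their sum was 933, 312 and 828 in the LN-BEC libraries, 24.1 to 111 in LN-LEC and 4.01 to 11.6 in D-LEC, and Plin1 and Lep were at 0 in D-LEC. All 6 had a count in LN-LEC and in LN-BEC. LN-BEC replicate 2 was the lowest of its population in this sum, in Lpl (1103), in Cd36 (28219) and in Fabp4 (111455), and also in the sum of the fibroblast and pericyte markers Pdgfra, Pdgfrb, Des, Col1a1 and Dcn (1503, against 4776 and 5040; 3290 to 5153 in LN-LEC and 1862 to 4938 in D-LEC). Gpihbp1 (6113), Fabp5 (1984) and the capillary marker Car4 (2668) were also lowest in LN-BEC replicate 2. Vldlr (714), Lipg (815) and the high endothelial venule marker sum (2836170) were highest in it. Pparg was lowest in LN-BEC replicate 1 (905, against 933 in LN-BEC replicate 2). Lpl, Pparg, Cd36 and Fabp4 were all highest in LN-BEC replicate 3, while the adipocyte sum was highest in LN-BEC replicate 1. The part of adipocyte and of fibroblast or pericyte RNA in these levels was not tested.

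Lipg, the endothelial lipase (chromosome 18, 75098976 to 75120917), was the member with the widest range on the log2 scale. The LN-BEC libraries held 769, 815 and 681 normalized counts. The LN-LEC libraries held 32.4, 11.4, 13.6 and 44.6. In D-LEC they were 1.26, 9.02 and 1.65, which rest on 1, 9 and 2 fragments. The 3 populations did not overlap, with LN-BEC far above both lymphatic populations. The log2 fold change was -4.79 (SE 0.41, adjusted p = 4.8e-06) for LN-LEC against LN-BEC and -7.52 (SE 0.59, adjusted p = 1.7e-06) for D-LEC against LN-BEC. Without D-LEC replicate 2, the library with 9 fragments, the latter was -8.87 (adjusted p = 2.7e-06). LN-LEC was higher than D-LEC by 2.73 (SE 0.67, adjusted p = 0.0066), and without that library by 4.09 (adjusted p = 0.0026). Lipg stood at 3.38% ± 2.10 (SD, n = 4) of the LN-BEC mean in LN-LEC, with 1.51% to 5.91% over the libraries, beside 1.35% to 2.27% for the means of the 4 BEC markers, and the part of carried-over BEC RNA was not tested. LN-BEC replicate 3 had the lowest level of its population, 0.859 times the mean of the other 2 libraries.

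Vldlr, the receptor for triglyceride-rich lipoproteins (chromosome 19, 27291510 to 27328721), was the one member that was highest in D-LEC and lowest in LN-BEC beyond the spread. By library it was at 1641, 2115 and 2019 in D-LEC. They were 1020, 929, 872 and 824 in LN-LEC. They were 675, 714 and 626 in LN-BEC. The 3 populations did not overlap. D-LEC was 2.86-fold above LN-BEC (log2 fold change 1.51, SE 0.12, adjusted p = 1.4e-07) and 2.09-fold above LN-LEC (-1.06 for LN-LEC against D-LEC, SE 0.11, adjusted p = 2.4e-06). LN-LEC was 1.37-fold above LN-BEC (0.45, SE 0.11, adjusted p = 0.0050). Skeletal muscle also expresses Vldlr, and the sum of the muscle markers Ckm, Acta1, Myh4, Myh2, Tnnt3 and Mb was 885, 1121 and 1259 in the D-LEC libraries, with all 6 counted, against 2.54 to 11.9 in LN-LEC and 10.5 to 15.8 in LN-BEC, where Myh4 was at 0. The mesothelium markers Msln, Upk3b and Wt1 summed to 463 to 1471 in D-LEC, 15.8 to 53.1 in LN-LEC and 9.51 to 92.8 in LN-BEC, with each of the 3 counted in every population. Their part in the Vldlr level was not tested.

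Cd36, the fatty acid translocase (chromosome 5, 17287508 to 17394777, minus strand), was high in both lymph node populations and low in the diaphragm. The libraries held 26684, 27639, 26891 and 37953 in LN-LEC. They were 39959, 28219 and 60490 in LN-BEC. They were 1143, 1067 and 1390 in D-LEC. The D-LEC libraries lay below every lymph node library, and the 2 lymph node populations overlapped. LN-LEC was 25.2-fold above D-LEC (log2 fold change 4.65, SE 0.29, adjusted p = 3.2e-07) and LN-BEC was 35.8-fold above it (-5.16 for D-LEC against LN-BEC, SE 0.30, adjusted p = 1.6e-07). LN-LEC and LN-BEC differed by -0.51 (95% interval -1.03 to 0.01, adjusted p = 0.11), and by -0.19 without LN-BEC replicate 3 (adjusted p = 0.45). Over the 11 edgeR fits that left out libraries this difference ranged from -0.73 to -0.19, and 1 passed (adjusted p = 0.0081). In LN-LEC, Cd36 stood at 69.5% of the LN-BEC mean, where the BEC markers were at 1.35% to 2.27%. Macrophages and platelets also express Cd36. The macrophage markers Ptprc, Csf1r, Emr1, Cd68, Lyz2 and C1qa summed to 314 to 409 in LN-LEC, 657 to 704 in LN-BEC and 515 to 900 in D-LEC. The platelet markers Pf4, Ppbp, Gp9 and Gp1ba summed to 967 to 1195 in LN-LEC, where Gp9 was at 0, 1257 to 1823 in LN-BEC and 101 to 233 in D-LEC. Pf4 led the platelet sum in every population, while Ppbp and Gp9 were highest in D-LEC, with means of 55.5 and 4.78. Gp1ba was highest in LN-LEC, with means of 217 there, 32.7 in LN-BEC and 15.3 in D-LEC. The part of macrophage and of platelet RNA in the Cd36 level was not tested.

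Fabp4, the fatty acid carrier also known from adipocytes and capillary endothelium (chromosome 3, 10204343 to 10208576, minus strand), was highest in LN-BEC, lower in LN-LEC and lowest in D-LEC. It reached 144617, 111455 and 218390 in LN-BEC. They were 21304, 23011, 23075 and 30620 in LN-LEC. They were 2470, 3483 and 4689 in D-LEC. The 3 populations did not overlap. LN-LEC was 6.38-fold below LN-BEC (log2 fold change -2.67, SE 0.27, adjusted p = 2.7e-05) and 7.0-fold above D-LEC (2.81, SE 0.30, adjusted p = 3.1e-05), and D-LEC was 44.7-fold below LN-BEC (-5.48, SE 0.34, adjusted p = 5.4e-07). Per kilobase of exon it was rank 6 of the 15320 genes in LN-BEC, rank 25 in LN-LEC and rank 309 in D-LEC, and it took 0.345% to 0.582% of all counted fragments of a LN-BEC library.

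Fabp5, the epidermal-type carrier (chromosome 3, 10012606 to 10016610, plus strand), had the same order with a narrower spread. By library it was at 2371, 1984 and 2882 in LN-BEC. They were 665, 669, 754 and 768 in LN-LEC. They were 75.7, 72.1 and 91.7 in D-LEC. The 3 populations did not overlap, and the differences were -1.74 (SE 0.12, adjusted p = 7.5e-08) for LN-LEC against LN-BEC, 3.17 (SE 0.15, adjusted p = 1.3e-09) for LN-LEC against D-LEC and -4.91 (SE 0.16, adjusted p = 3.7e-11) for D-LEC against LN-BEC. The Fabp5 level is less certain than that of the other members. Of its 100-base exon windows, 27.2% have a second perfect copy in mm9. The share was 2.69% for the windows of Lpl and 0 for those of the other 7 members. Multimapping fragments were left out of the counts, and how many Fabp5 lost in this way was not measured.

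The 2 carriers could be set against each other inside a library, per kilobase of exon, where no scaling between libraries enters. The ratio of Fabp4 to Fabp5 was 88.7, 81.7 and 110 in LN-BEC. It was 46.6, 50.01, 44.5 and 58.0 in LN-LEC. It was 47.4, 70.2 and 74.3 in D-LEC. Every LN-BEC ratio was above every LEC ratio, and the LN-LEC and D-LEC ratios overlapped. The log2 difference was -0.91 for LN-LEC against LN-BEC (exact two-sided permutation test, p = 0.0571, adjusted over the 3 comparisons 0.15). It was -0.34 for LN-LEC against D-LEC (exact permutation p = 0.171, adjusted 0.171) and -0.56 for D-LEC against LN-BEC (exact permutation p = 0.1, adjusted 0.15). With 4 against 3 libraries the test cannot go below 0.0571, and with 3 against 3 not below 0.1. Fabp5 fragments lost to second copies would raise the ratio in every library, and whether by the same share was not measured.

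**Figure D3:**
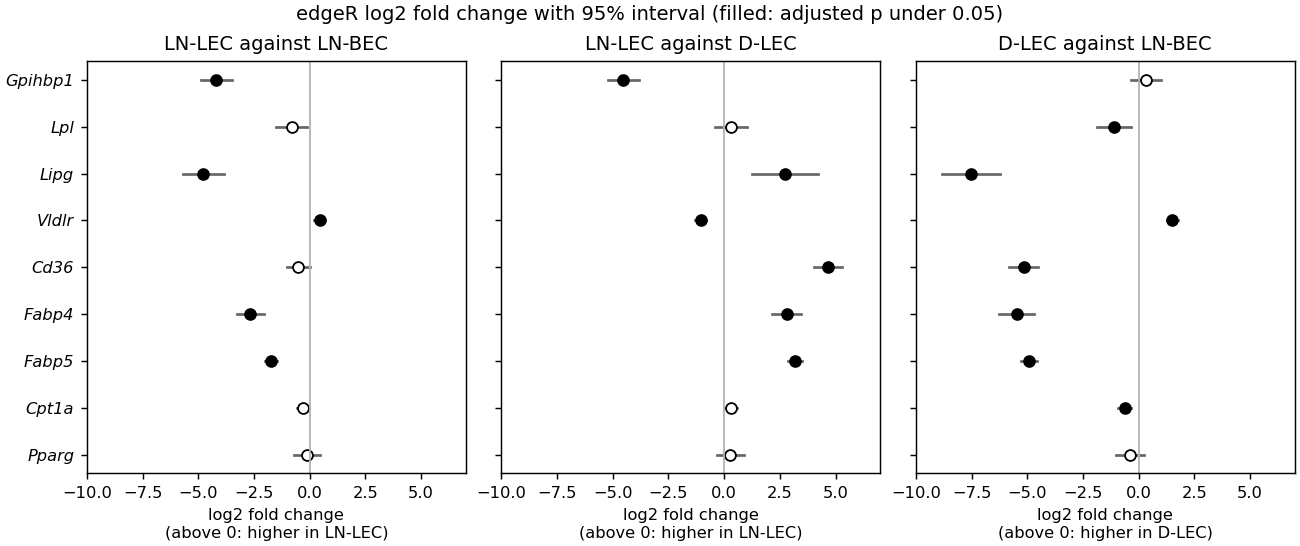
edgeR log2 fold change of the 9 genes with its 95% interval in each comparison, with filled points for an adjusted p under 0.05 and the direction named under each axis. The largest differences were those of D-LEC against LN-BEC in Lipg (-7.52, and -8.87 without D-LEC replicate 2), Fabp4 (-5.48), Cd36 (-5.16) and Fabp5 (-4.91), and the intervals of Pparg include 0 in all 3 comparisons.

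Cpt1a, which loads long-chain fatty acids for import into mitochondria (chromosome 19, 3323301 to 3385733), moved little beside the uptake genes. Its normalized counts were 3372, 3307, 3509 and 3871 in LN-LEC. They were 3694, 4029 and 5538 in LN-BEC. They were 3137, 2584 and 2937 in D-LEC. The D-LEC libraries lay below all others, and LN-LEC and LN-BEC overlapped. D-LEC was 1.54-fold below LN-BEC (log2 fold change -0.62, SE 0.14, adjusted p = 0.0018). LN-LEC differed from LN-BEC by -0.31 (95% interval -0.59 to -0.04, adjusted p = 0.065) and from D-LEC by 0.31 (95% interval 0.03 to 0.58, adjusted p = 0.064), and both were near the threshold. The first passed without LN-LEC replicate 4 (adjusted p = 0.048) or LN-BEC replicate 1 (0.018). The second passed without LN-BEC replicate 1 (adjusted p = 0.043) or LN-BEC replicate 3 (0.013).

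Pparg, the nuclear receptor (chromosome 6, 115311239 to 115440419), did not pass the test in any of the 3 comparisons, by edgeR or by DESeq2. Its normalized counts were 1093, 1097, 925 and 1433 in LN-LEC. They were 905, 933 and 1907 in LN-BEC. They were 946, 866 and 1040 in D-LEC. All 3 populations overlapped, and the widest gap inside a population was between LN-BEC replicate 3 and the other LN-BEC libraries. The differences were -0.11 (95% interval -0.70 to 0.47, adjusted p = 0.77) for LN-LEC against LN-BEC, 0.28 (95% interval -0.31 to 0.88, adjusted p = 0.42) for LN-LEC against D-LEC and -0.40 (95% interval -1.03 to 0.24, adjusted p = 0.28) for D-LEC against LN-BEC. Without LN-BEC replicate 3 the first turned to 0.31 (adjusted p = 0.12) and the last to 0.04 (adjusted p = 0.88). The 3 intervals reach as far as -1.03 and do not show equal levels.

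LN-BEC replicate 3 had more of 7 of the 9 members than the mean of the other LN-BEC libraries. The share of all genes that were higher in it was not counted. The ratio was 2.26 for Lpl, 2.08 for Pparg, 2.0 for Gpihbp1, 1.77 for Cd36, 1.71 for Fabp4, 1.43 for Cpt1a and 1.32 for Fabp5. For Vldlr it was 0.901 and for Lipg 0.859. The high endothelial venule markers were all lower in that library, Glycam1 at 0.793, Chst4 at 0.816, Fut7 at 0.774 and Madcam1 at 0.778 times the mean of the other 2. Of the capillary markers, Car4 was at 1.58, Rgcc at 1.4 and Cd300lg at 1.30 times it, while Plvap was at 1.01 and Kdr at 0.889. The BEC markers were at 0.901 (Flt1), 0.87 (Vwf), 0.993 (Nrp1) and 1.21 (Notch4) times it. The LEC markers were higher too, by a ratio of 2.16 for Prox1 to 4.69 for Lyve1, and reached 4.31% to 6.23% of their LN-LEC mean. The mean Gpihbp1 level of LN-LEC itself, 467 ± 108 (SD, n = 4), was below that of every LN-BEC library. LN-LEC replicate 4 was above every other LN-LEC library in Gpihbp1, Cd36, Pparg, Fabp4, Cpt1a, Fabp5 and Lipg. Its ratio to their mean ran from 1.10 (Fabp5) through 1.44 (Gpihbp1) to 2.33 (Lipg). For Lpl the ratio was 1.07 and for Vldlr 0.876, neither above all others. The share of all genes that were highest in LN-LEC replicate 4 was not counted. Among the markers, Flt1, Vwf, Notch4, Rgcc and Pdpn were also highest in it, while Nrp1, Car4, Lyve1, Prox1 and Reln were not. The part of the capillary and venule markers in the levels of LN-BEC replicate 3 was not tested.

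**Figure D4:**
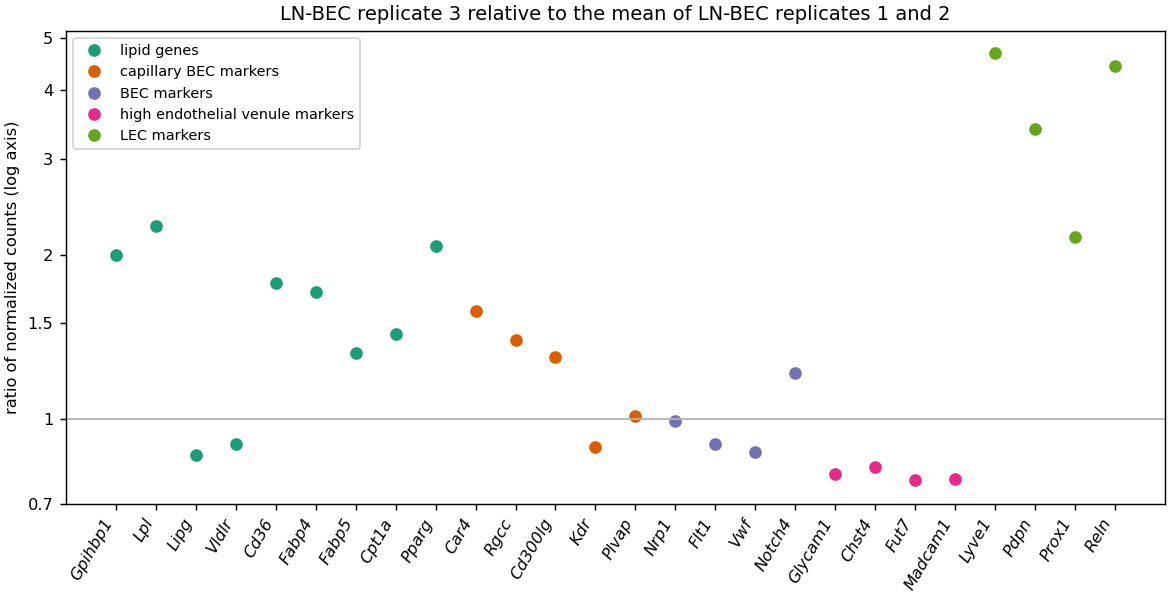
Normalized count in LN-BEC replicate 3 divided by the mean of LN-BEC replicates 1 and 2 (log axis) for the 9 lipid genes and for capillary, general BEC, high endothelial venule and LEC markers, 1 point a gene. The 4 venule markers lie below 1 (0.774 to 0.816), and 7 of the 9 lipid genes lie above it. The share of all genes above 1 was not counted.

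High endothelial venule markers summed to 2082900 to 2836170 in LN-BEC, 57924 to 85406 in LN-LEC and 214 to 753 in D-LEC, and Glycam1 led the sum. LN-LEC held 3.0% of the LN-BEC mean of Glycam1, and 0.888% and 1.13% of those of Chst4 and Fut7. Madcam1 was at 42.3%. The capillary markers summed to 124639 to 152563 in LN-BEC, 45835 to 52281 in LN-LEC and 26744 to 28443 in D-LEC. In LN-LEC, Fabp4 was at 15.5% ± 2.63 (SD, n = 4) and Fabp5 at 29.6% of the LN-BEC mean. Of the capillary markers there, Car4 was at 1.61%, Rgcc at 3.17%, Cd300lg at 23.3%, Plvap at 44.7% and Kdr at 98.4% of it. Both carriers lay above Car4 and Rgcc and below Plvap and Kdr. The list is too wide to place the carriers, and the part of carried-over BEC RNA in them was not tested. Lymphocyte markers (Cd3e, Cd3g, Cd79a, Ms4a1) were low, 29.8 to 52.0 in LN-LEC, 248 to 455 in LN-BEC and 9.92 to 39.1 in D-LEC.

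Scaled by exon length, the order of the members differed between the populations. In LN-LEC it ran from Fabp4 (38225 per kilobase) and Cd36 (7586) through Cpt1a (817), Fabp5 (766), Gpihbp1 (586) and Pparg (573) to Lpl (291), Vldlr (110) and Lipg (6.74). The libraries of Cpt1a and Fabp5, of Fabp5 and Gpihbp1 and of Gpihbp1 and Pparg overlapped, and the other neighbours did not. In LN-BEC it ran from Fabp4 (246730) through Cd36 (10922), Gpihbp1 (10872), Fabp5 (2588), Cpt1a (1028), Pparg (629) and Lpl (519) to Lipg (199) and Vldlr (80.9), where Cd36 and Gpihbp1, Cpt1a and Pparg, and Pparg and Lpl overlapped. In D-LEC it ran from Gpihbp1 (13763) through Fabp4 (5534), Cpt1a (671), Pparg (479), Cd36 (306), Lpl (240), Vldlr (232) and Fabp5 (85.7) to Lipg (1.05), and Lpl and Vldlr overlapped. Gpihbp1 led the list in the diaphragm and was number 5 of 9 in LN-LEC, and Cd36 was number 2 in both lymph node populations and number 5 in the diaphragm.

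**Figure D5:**
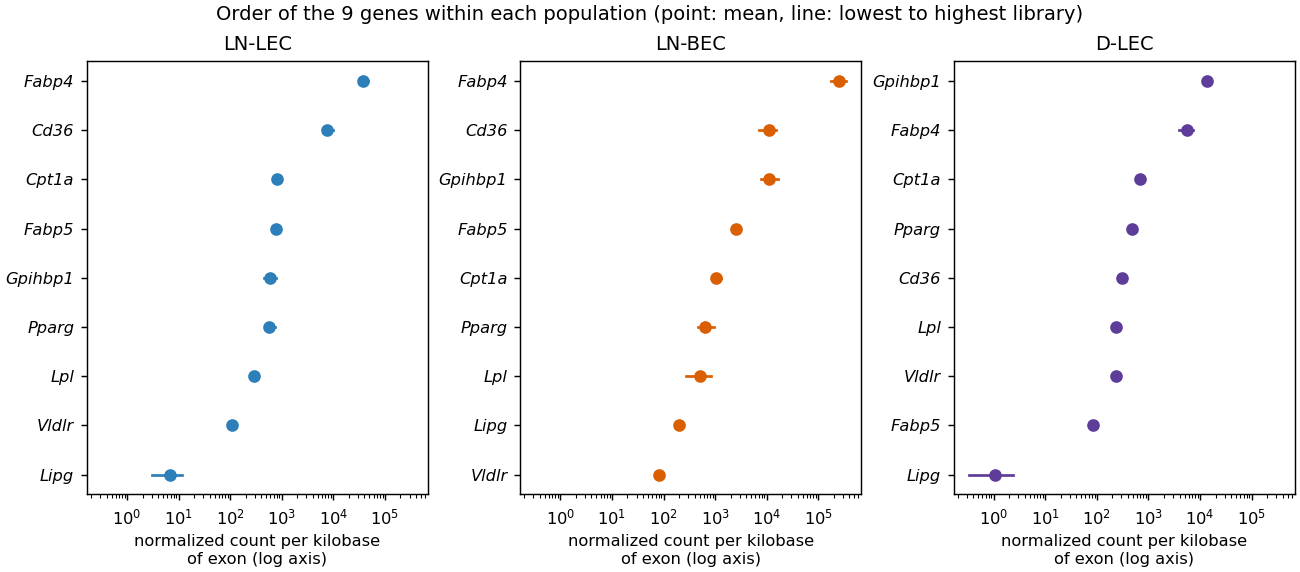
Normalized count per kilobase of exon (log axis) of the 9 genes, ordered within each population, with a point for the mean and a line from the lowest to the highest library. Fabp4 leads in both lymph node populations (38225 in LN-LEC and 246730 in LN-BEC), and Gpihbp1 leads in D-LEC (13763).

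A wider list of 75 lipid genes, all of them tested, was read for the same comparisons. LN-LEC had more of 20 and LN-BEC more of 18. LN-LEC had more of 26 when set against D-LEC, and D-LEC more of 20. In the last comparison D-LEC had more of 19 and LN-BEC more of 23. The genes called were 38 of 75, 46 of 75 and 42 of 75. Over all 15320 genes tested they were 5849 (38.2%), 7013 (45.8%) and 7364 (48.1%). In each comparison the share of the list was above that over all genes, and the list was chosen with earlier results known. The median log2 fold changes of the list were 0.04, 0.08 and -0.03. By direction, 19.8% of all genes were higher in LN-LEC and 18.4% in LN-BEC in the first comparison. The shares were 24.1% for LN-LEC and 21.7% for D-LEC in the next, and 22.5% for D-LEC and 25.6% for LN-BEC in the last. The counts of the 6 smaller lists below stand beside these shares, and the lists were not tested as sets.

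Among the 14 regulators of lipolysis and other lipases, 4 were higher in LN-LEC and 5 in LN-BEC. Lipe, the hormone-sensitive lipase of stored fat, was at 1701 ± 166 in LN-BEC, 167 ± 14.01 in LN-LEC and 111 ± 29.9 in D-LEC (SD, here and for the genes that follow over the 3 LN-BEC, 4 LN-LEC or 3 D-LEC libraries), with a log2 fold change of -3.34 (SE 0.15, adjusted p = 8.9e-10) for LN-LEC against LN-BEC. Between LN-LEC and D-LEC, 5 were higher in LN-LEC and 3 in D-LEC. Apoe, the apolipoprotein that receptors recognise, was at 27015 ± 988 in LN-BEC, 16363 ± 3659 in LN-LEC and 710 ± 129 in D-LEC, so that it was low in the diaphragm like Cd36 (log2 fold change 4.54, SE 0.20, adjusted p = 2.8e-09 for LN-LEC against D-LEC). Mgll, which splits monoglycerides, was at 1376 ± 326 in LN-LEC, 5759 ± 659 in D-LEC and 7541 ± 1702 in LN-BEC, with a log2 fold change of -2.04 (adjusted p = 4.2e-06) for LN-LEC against D-LEC. Between D-LEC and LN-BEC, 4 were higher in D-LEC and 5 in LN-BEC.

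Of the 8 lipoprotein receptors, LN-LEC had more of 2 and LN-BEC more of 3. Against D-LEC, LN-LEC had more of 3 and D-LEC more of 2, and D-LEC had more of 1 and LN-BEC more of 4 between these populations. Scarb1, the receptor for high-density lipoprotein, was at 16377 ± 635 in LN-BEC, 931 ± 108 in LN-LEC and 192 ± 22.2 in D-LEC, the same order as Lipg. Its log2 fold change was -4.12 (SE 0.11, adjusted p = 1.4e-11) for LN-LEC against LN-BEC and -6.42 (SE 0.14, adjusted p = 4.8e-12) for D-LEC against LN-BEC. Lrp8, a receptor of the same family as Vldlr, was also highest in D-LEC (215 ± 59.8, then 122 ± 26.5 in LN-LEC and 64.3 ± 14.99 in LN-BEC). Olr1, a receptor for oxidised lipoprotein, was at 49.2 ± 22.6 in LN-LEC and 2.64 ± 2.06 in D-LEC.

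Of the 13 genes of fatty acid transport and activation, LN-LEC had more of 4 and LN-BEC more of 4. LN-LEC had more of 6 and D-LEC more of 3 between the lymphatic populations, and D-LEC had more of 2 and LN-BEC more of 5. The genes with the largest changes were expressed at low levels. Fabp3, the heart and muscle carrier, was at 72.1 ± 18.1 in D-LEC, with 12.3 ± 5.47 in LN-BEC and 10.9 ± 5.52 in LN-LEC, opposite to Fabp4 and Fabp5, and D-LEC libraries had the muscle marker sums of 885 to 1259 given above. Mfsd2a, a transporter of lysophosphatidylcholine, was at 19.3 ± 6.99 in LN-BEC and 3.89 ± 2.58 in LN-LEC, and no fragment was counted in D-LEC, which allows a CPM of up to 0.0838 to 0.128 per library by counting error. Acsl6, an acyl-CoA synthetase, was at 19.9 ± 13.3 in LN-LEC, 0.28 ± 0.48 in D-LEC and 3.09 ± 1.32 in LN-BEC.

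Of the 12 nuclear receptors and transcriptional regulators, LN-LEC had more of 5 and LN-BEC more of 3. LN-LEC had more of 5 and D-LEC more of 2 between the lymphatic populations, and D-LEC and LN-BEC had more of 3 each. Meox2 and Tcf15, the pair of factors known to drive Cd36, Lpl and fatty acid uptake in heart capillaries, did not move alike. Tcf15 was at 1164 ± 197 in LN-BEC, 54.2 ± 6.86 in LN-LEC and 32.5 ± 3.29 in D-LEC (-4.40, SE 0.15, adjusted p = 1.1e-10 for LN-LEC against LN-BEC). Meox2 was highest in LN-LEC (3048 ± 296) and at 1042 ± 341 in LN-BEC and 387 ± 96.7 in D-LEC (3.01, SE 0.24, adjusted p = 2.1e-06 for LN-LEC against D-LEC). Nr1h3, which encodes the oxysterol receptor LXRα, was highest in D-LEC (1860 ± 155, against 528 ± 57.3 and 397 ± 10.9 in LN-LEC and LN-BEC). The coactivator Ppargc1b was at 188 ± 38.2 in LN-LEC, 123 ± 11.8 in D-LEC and 37.1 ± 8.10 in LN-BEC.

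Of the 19 genes of mitochondrial fatty acid oxidation, 6 passed between LN-LEC and LN-BEC (5 higher in LN-LEC), 13 between LN-LEC and D-LEC (7 higher in LN-LEC) and 9 between D-LEC and LN-BEC (5 higher in D-LEC). Cpt1c, the neuronal relative of Cpt1a, was at 328 ± 26.1 in LN-LEC, 367 ± 29.7 in D-LEC and 99.5 ± 30.0 in LN-BEC. Acacb, whose product makes the inhibitor of CPT1, was at 1190 ± 64.0 in LN-BEC, 698 ± 116 in LN-LEC and 176 ± 41.2 in D-LEC. Decr1, an enzyme for unsaturated fatty acids, was at 1265 ± 97.5 in LN-LEC, 239 ± 51.6 in D-LEC and 1089 ± 62.6 in LN-BEC (2.41, adjusted p = 7.9e-09 for LN-LEC against D-LEC). Acaa2, the thiolase that ends each round of oxidation, was at 2205 ± 504 in D-LEC and 1463 ± 272 in LN-LEC (-0.57, adjusted p = 0.017).

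Of the 9 genes of lipid droplets, 2 passed between LN-LEC and LN-BEC and 4 between LN-LEC and D-LEC, each lower in LN-LEC. D-LEC had more of 4 and LN-BEC more of 2. Plin4, a droplet coat protein of adipocytes and muscle, was at 373 ± 103 in D-LEC, 33.8 ± 11.4 in LN-BEC and 9.58 ± 1.16 in LN-LEC. The adipocyte markers were lowest and the muscle markers highest in these D-LEC libraries, and their part in the Plin4 level was not tested. Dgat2, which makes triglyceride, was at 47.5 ± 9.16 in LN-BEC, 18.8 ± 4.05 in D-LEC and 11.5 ± 5.30 in LN-LEC.

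For each member, the genes closest in pattern were found among 10210 genes (mean over the libraries 100 or more), as the distance between log2 levels centred over the 10 libraries, and the fit is a description of these libraries. Hey1, a Notch target, was the closest to Gpihbp1 (distance 1.09), with means of 6542 in D-LEC, 5022 in LN-BEC and 284 in LN-LEC, followed by B3gnt5 (1.27) and Dysf (1.29). Slamf8 (1.59), Lcp1 (2.01) and Mcf2l (2.16) were the closest to Lipg, and Lcp1 and Slamf8 are genes of leukocytes. Lrrc33 (0.981), Pon3 (1.09) and Ifi47 (1.13) were the closest to Cd36, with Pon3 at 287 in LN-BEC, 262 in LN-LEC and 13.3 in D-LEC. Myh11, the smooth muscle myosin (1.21), Kitl (1.35) and the endothelial lectin Clec14a (1.496) were the closest to Fabp4. Mcc (0.769), Lama5 (0.851) and Bace2 (0.867) were the closest to Fabp5. The members themselves were left out of the genes searched, so neither carrier could be listed for the other. Msrb3 (0.297), Fam63b (0.366) and Cyp20a1 (0.403) were the closest to Vldlr. The members with small differences had their closest genes in Ifitm1 (0.829), Arg1 (0.895) and Gfod1 (0.907) for Lpl, Ssr4 (0.238), Mdh1 (0.321) and Sec23b (0.322) for Cpt1a, and Gsto1 (0.508), Rhoq (0.553) and Fkbp4 (0.621) for Pparg.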

How the data were processed

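RNA-Seq counts of 10 libraries were used. The authors trimmed paired reads, aligned them with STAR to mm9 and counted fragments per gene with featureCounts 1.4.4. The counts deposited by the authors are whole fragments per gene, not normalized. Per the file header, pairs with both ends aligned were counted over exons without strand. Multimapping fragments were left out, so genes with near copies can be undercounted. From the 23284 genes, 3831 with predicted or clone symbols were left out, and the 15320 whose mean normalized count reached 1 in some population were tested with edgeR 4.0.16 (R 4.3.3, TMM, robust quasi-likelihood F test, 1 mean per population over all 10 libraries, Benjamini-Hochberg over all genes tested). DESeq2 1.42.0, other normalizations, filters and sample sets were alternatives. The script was tested on simulated data. The named genes were the 9 members, and of 6 pathway lists the called gene with the largest change in each direction and comparison (mean of at least 10 in the higher population). The members and lists were chosen with earlier results of these data known. The labels do not say whether the libraries came from separate sorts, so p-values measure the spread between these libraries. Intervals of low counts cover counting error only. Some genes that the rule named are not reported here.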

Additional observations from a re-analysis of the deposited data

Results flagged for a closer look

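Cd36 in LN-LEC replicate 4 was at 37953 normalized counts, while the other 3 LN-LEC libraries lay at 26684, 27639 and 26891. It stood out because its gap to the nearest library was a larger part of the range of the 4 libraries than Dixon's 95% critical value of 0.829 allows. Chance alone gives such a gap in about 1 of 20 groups, and the 9 members were each looked at. The same library was 1.36 times the mean of the other LN-LEC libraries for Fabp4, 1.44 times for Gpihbp1 and 2.33 times for Lipg. Without it, LN-LEC against LN-BEC gave a Cd36 log2 fold change of -0.65 (edgeR, adjusted p = 0.060).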

How the results depend on the processing

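The members called by edgeR numbered 5, 6 and 7 in LN-LEC against LN-BEC, LN-LEC against D-LEC and D-LEC against LN-BEC. DESeq2 called 8 in the first, and leaving out libraries gave 5 to 7, 6 to 7 and 6 to 8. Of 459 recomputed fold changes of the members, 439 kept direction and call, 13 passed only under the alternative, 3 (Lpl, D-LEC against LN-BEC) no longer passed and 4 turned direction. The 4 were Pparg without LN-BEC replicate 3 (0.31 for LN-LEC against LN-BEC and 0.04 for D-LEC against LN-BEC) and without LN-BEC replicate 3 and LN-LEC replicate 4 together (0.19 and 0.063), and the cause was not tested. Without single libraries Pparg ranged from -0.30 to 0.31 and from -0.57 to 0.035 in these comparisons. Lpl in D-LEC against LN-BEC was -1.09 with only these 2 populations in the fit (adjusted p = 0.083). The Fabp4 to Fabp5 differences ranged, without single libraries, from -0.997 to -0.78, -0.54 to -0.22 and -0.68 to -0.36. Of the 75 lipid genes, 35 to 41, 40 to 48 and 39 to 46 were called over all alternatives. Lipg in D-LEC rests on 1 to 9 fragments a library. No paired analysis was possible because the labels give no number that pairs libraries across populations.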
